A study of Mus musculus with 8 samples.

Results

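The T-box genes encode transcription factors that share a DNA-binding domain, the T-box. The 9 described here, Tbr1, Eomes, Tbx1, Tbx2, Tbx3, Tbx4, Tbx5, Tbx15 and Tbx18, were taken by name from the array's gene annotation, out of 31732 genes with a usable probe. Their signals in Dnmt3a-KO against WT cells over the days of culture were part of how they were chosen, so on those contrasts their values are a description without a test. Of the 9 genes, 7 passed the filter on dim probes (4 or more of 8 arrays called well above background) and were among the 19655 genes tested, while Eomes and Tbx5 were not. Tbr1 passed that filter through its 4 Dnmt3a-KO arrays alone.

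The cells were satellite cells, which renew skeletal muscle, from the extensor digitorum longus, a muscle of the lower hindlimb. Donors were mice labelled Dnmt3a-KO, which lack the de novo DNA methyltransferase Dnmt3a, and their WT littermates, all labelled male and 8 weeks old. The allele, and whether the deletion was limited to a cell type by a Cre driver, are not given in the sources used here. After 5 days in growth medium all cells were replated at matched number and kept for 2, 4, 5 or 6 days in differentiation medium, where myoblasts join to form multinucleate myotubes. Each day had 1 Dnmt3a-KO array and 1 WT array, 8 in all, with no repeat of a genotype on a day. Nothing in the labels ties a day to particular mice, so the spread between days may be partly technical.

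T-box factors act in embryonic patterning and in the choice of cell fate, some as activators and some as repressors. Tbr1 and Eomes form one subfamily, known from the developing cortex, where Eomes marks intermediate progenitors and Tbr1 marks deep-layer projection neurons. Eomes also acts in cytotoxic lymphocytes. Tbx2 and Tbx3 are repressors of cell cycle inhibitor genes, Tbx4 is known from the hindlimb bud and Tbx5 from the forelimb bud and the heart. Tbx1 acts in the pharyngeal arches and their muscles, Tbx15 in limb skeleton and fast glycolytic muscle fibres, and Tbx18 in the epicardium and in mural cells around vessels. Tbx2 lies beside Tbx4, and Tbx3 beside Tbx5, in gene pairs inherited from one ancestral pair.

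Each level below is the signal of 1 probe, which had a single spot on each array. The first 30 of the 60 bases of 5 probes are shown because the differences between genotypes rest on them, and because Tbr1 has a second probe that gave another reading. Positions are those of the mm9 build per the file headers, and exons of that build were not used here.
Tbr1 probe A_55_P2112584 at chr2:61652093-61652152, plus strand: ccactgagaatcgttttgttttctgctcgt
Tbr1 probe A_55_P2405129 at chr2:61644054-61644113, plus strand: ttaacatttctggtctcgatcccaccgctc
Tbx2 probe A_55_P2010773 at chr11:85655391-85655450, plus strand: tttttgctccagagggagaacgaagcgaga
Tbx4 probe A_55_P2112445 at chr11:85729510-85729569, plus strand: gacaggcggtatgaaacttcaagtgttttt
Tbx18 probe A_51_P438711 at chr9:87599514-87599573, minus strand: gtgcagaagctggttaaatcttagtatatt
The second Tbr1 probe lies 8039 bases before the first on the chromosome, and both name the same transcript accession in the array annotation. The Tbx2 and Tbx4 probes lie 74119 bases apart.

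Because the genotypes differ in a DNA methyltransferase, promoters of 3 genes whose difference had one sign on each day are shown too. They run from 250 bases before to 50 bases after the annotated start in GRCm38.p6. Tbx2 also had one sign on each day but was not in the set of promoter sequences used. Capitals mark each CG, the dinucleotide that carries DNA methylation in mammals. Methylation was not measured here.
Tbr1 promoter, GRCm38.p6 chr2:61804203-61804502, plus strand: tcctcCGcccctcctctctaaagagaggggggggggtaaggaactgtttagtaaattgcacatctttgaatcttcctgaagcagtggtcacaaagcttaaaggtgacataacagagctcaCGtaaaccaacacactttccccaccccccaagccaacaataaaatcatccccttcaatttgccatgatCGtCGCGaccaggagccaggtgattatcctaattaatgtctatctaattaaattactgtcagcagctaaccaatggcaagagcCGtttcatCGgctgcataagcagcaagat
Tbx4 promoter, GRCm38.p6 chr11:85896515-85896814, plus strand: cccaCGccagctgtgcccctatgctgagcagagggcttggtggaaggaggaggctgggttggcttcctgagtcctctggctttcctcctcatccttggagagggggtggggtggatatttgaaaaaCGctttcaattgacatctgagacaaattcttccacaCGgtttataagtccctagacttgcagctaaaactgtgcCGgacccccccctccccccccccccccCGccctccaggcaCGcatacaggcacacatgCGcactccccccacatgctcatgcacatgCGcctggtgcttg
Tbx18 promoter, GRCm38.p6 chr9:87731211-87731510, minus strand: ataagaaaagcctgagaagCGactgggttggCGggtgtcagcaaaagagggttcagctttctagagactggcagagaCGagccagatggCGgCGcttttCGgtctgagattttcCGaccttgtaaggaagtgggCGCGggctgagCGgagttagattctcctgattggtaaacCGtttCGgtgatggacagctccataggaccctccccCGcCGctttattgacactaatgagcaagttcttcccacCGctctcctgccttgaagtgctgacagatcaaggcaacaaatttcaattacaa
These windows hold 7 CG in Tbr1, 8 in Tbx4 and 15 in Tbx18, against a median of 7 over 32851 mouse promoter windows of the same length. Of the 9 genes, 5 matched a window; Eomes has 10 CG and the 2 Tbx1 windows have 26 and 16. A T-box motif spelled AGGTGTGA, or TCACACCT on the other strand, was in 0 of the 6 windows of these genes and in 1.28% of all windows.

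Levels are given as the processed signal in percent of the 75th percentile of the same array, so values of different probes cannot be ranked against each other. The 75th percentile ran from 719.5 to 1528.1 intensity units, and the image software called 61.6% to 67.4% of each array's spots well above background. Dnmt3a had 24.0, 52.5, 54.2 and 38.9% in Dnmt3a-KO cells on days 2, 4, 5 and 6, against 51.9, 265, 250 and 204% in WT cells, lower in the array labelled Dnmt3a-KO on each day. The position of the deletion relative to that probe was not given in the sources used here. Both day 2 arrays were on a slide, scanner and software version of their own, and days 4 and 5 shared a slide. Although all mice are labelled male, Xist was detected on all 6 later arrays and on 0 of the day 2 arrays, and 4 Y-linked genes (Uty, Kdm5d, Eif2s3y and Ddx3y) were detected on both day 2 arrays and on 0 later ones. Day 2 and the later days thus go together with slide and with sex-linked transcripts, while each day holds both genotypes. Of 10 satellite cell and muscle markers, 8 had a usable probe and 7 of these were well above background on all 8 arrays. Myf5 was so on none. The summed signal of the markers with a usable probe was 21102 to 26218% in Dnmt3a-KO cells and 22127 to 25389% in WT cells. It leaves out Myh3 and Acta1, which had no usable probe. Pax7, the satellite cell factor, was lower in Dnmt3a-KO on 4 of 4 days with -0.74 ± 0.47 log2 units, and so was Cdh15, M-cadherin, with -0.22 ± 0.14. Mymk, the fusion protein myomaker, was higher with 0.16 ± 0.06 (SD over 4 days, limma adjusted p of 0.28, 0.38 and 0.39).

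Tbr1 was the one gene of the 9 that was well above background in Dnmt3a-KO cells on each day and in WT cells on none. Probe A_55_P2112584 read 1.86, 3.82, 2.11 and 2.74% in Dnmt3a-KO cells on days 2, 4, 5 and 6, against 0.712, 0.242, -0.291 and 0.262% in WT cells. All 4 Dnmt3a-KO arrays were well above background and above all 4 WT arrays, of which none was well above background. The levels were low: no probe on any array was called well above background under 0.763%. The software's own error of the Tbr1 spot was 0.248 to 0.686% in Dnmt3a-KO cells and 0.213 to 0.623% in WT cells, so days 2 and 5, the lowest Dnmt3a-KO readings, lie within it of each other. Where a group was not well above background, the fold was taken against the dimmest reading still called so on that array. The probe's own signal was used if higher. On this scale Tbr1 was 2.34-fold higher in Dnmt3a-KO cells over the 4 days, and 1.90-, 3.79-, 1.78- and 2.35-fold on days 2, 4, 5 and 6. Such folds are no strict bounds, since they leave out the spot error. Some brighter readings were not called either, such as Eomes at 2.25% on the day 4 WT array. With values under a common floor of 0.763% set to it, the mean difference was 1.73 ± 0.46 log2 units (SD over 4 days), a value that the floor sets, since no WT reading exceeded it; with each array's own lowest signal well above background as the floor it was 1.23.

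The second Tbr1 probe did not show this. Probe A_55_P2405129 had 0 of 8 readings well above background, with -0.635 to 0.174% in Dnmt3a-KO cells and -0.884 to 0.50% in WT cells. The Tbr1 difference therefore rests on 1 probe near the low end of the array's range. Its size moved with the treatment of low signals, to 0.28 log2 units with local background subtracted and an offset of 50 (an alternative chosen after seeing the data) and to -1.39 with normexp background correction.

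Eomes, the relative of Tbr1, had no reading above background in either genotype on probe A_55_P2150717, with 0.717, 0.916, 1.63 and 1.53% in Dnmt3a-KO cells on days 2, 4, 5 and 6, against 0.567, 2.25, 0.753 and 1.83% in WT cells. These values overlap and neither genotype stands above the other. A second Eomes probe, 764 bases further along, was well above background on 1 array, Dnmt3a-KO on day 5, at 10.1%. On the other 7 arrays it read from -0.755 to 0.217%.

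**Figure D1:**
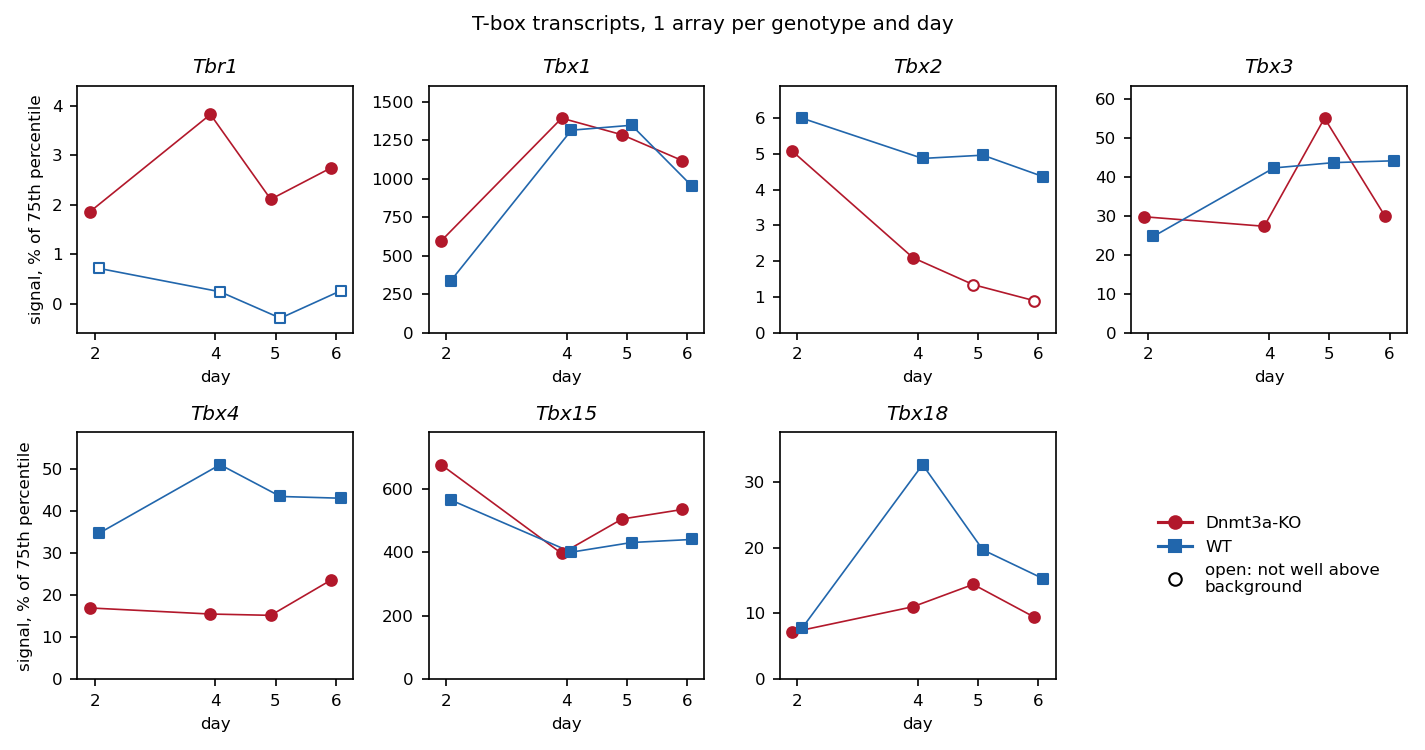
Signal of the 7 T-box genes that passed the filter, in percent of each array's 75th percentile, by day, with Dnmt3a-KO as red circles and WT as blue squares, 1 array per point and no error bars because nothing was repeated. Open symbols were not well above background: all 4 WT readings of Tbr1, and Tbx2 in Dnmt3a-KO cells on days 5 and 6. Each panel has its own linear scale; Tbx4 separates the genotypes on each day while Tbx1, Tbx3 and Tbx15 do not.

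Tbx2 and Tbx4, the neighbouring pair on chromosome 11, were both lower in Dnmt3a-KO cells on each of the 4 days. Tbx2 read 5.08, 2.10, 1.34 and 0.898% in Dnmt3a-KO cells on days 2, 4, 5 and 6, against 6.00, 4.87, 4.97 and 4.37% in WT cells. The day 2 readings lay close together, the WT arrays stayed within a narrow range, and the Dnmt3a-KO arrays of days 5 and 6 were not well above background. The log2 differences were -0.24, -1.22, -1.89 and -2.28 on the 4 days, with a mean of -1.41 ± 0.89 (SD over 4 days). The values of days 5 and 6 rest on dim Dnmt3a-KO readings and are not exact, and with each array's own floor the mean was -1.33. On day 5 the Dnmt3a-KO signal of Tbx2 was 3.70-fold lower against its own dim reading, so this is the measured fold and no bound. On day 6 the signal was 3.88-fold lower against that array's dimmest reading called well above background, no strict bound either. The mean without day 2 was -1.80, and with local background subtracted and an offset of 50 it was -0.30.

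Tbx4 read 16.9, 15.5, 15.2 and 23.6% in Dnmt3a-KO cells on days 2, 4, 5 and 6, against 34.8, 51.1, 43.5 and 43.1% in WT cells. All 8 readings were well above background and the 4 Dnmt3a-KO values all lay below the 4 WT values. The log2 differences were -1.04, -1.72, -1.52 and -0.87, with a mean of -1.29 ± 0.40 (SD over 4 days), a 2.44-fold lower signal. Among the alternatives run, the mean of Tbx4 stayed between -1.43 and -0.92.

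Tbx3, the closest relative of Tbx2, did not go with it. It read 29.7, 27.3, 55.0 and 29.9% in Dnmt3a-KO cells on days 2, 4, 5 and 6, against 24.6, 42.2, 43.6 and 44.0% in WT cells, so that Dnmt3a-KO was higher on 2 days and lower on 2. The mean log2 difference of -0.15 ± 0.52 (SD over 4 days) was smaller than its spread. Tbx5, the relative of Tbx4 and neighbour of Tbx3 on chromosome 5, was well above background on 0 of 8 arrays. Its readings of 0.279 to 1.89% in Dnmt3a-KO cells and 0.820 to 1.72% in WT cells allow no statement on its direction.

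Tbx1 and Tbx15 gave strong signals in both genotypes. Tbx1 read 595, 1392, 1284 and 1116% in Dnmt3a-KO cells on days 2, 4, 5 and 6, against 336, 1314, 1346 and 951% in WT cells. The genotypes overlapped, and the largest gap was on day 2, where Dnmt3a-KO was 0.82 log2 units higher. Its mean difference was 0.27 ± 0.39 (SD over 4 days), and 0.08 without day 2. Tbx15 read 677, 396, 505 and 535% in Dnmt3a-KO cells, against 565, 401, 431 and 441% in WT cells, higher in Dnmt3a-KO on 3 of 4 days by a mean of 0.19 ± 0.14 log2 units (SD over 4 days). Over all genes tested the median size of the genotype difference was 0.11 log2 units and the median SD over days was 0.20.

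Tbx18, a relative of Tbx15, was lower in Dnmt3a-KO cells on each day but by very unequal amounts. It read 7.12, 11, 14.4 and 9.48% in Dnmt3a-KO cells on days 2, 4, 5 and 6, against 7.73, 32.6, 19.6 and 15.3% in WT cells. The day 2 readings lay within the software's spot error of each other (0.746% in Dnmt3a-KO and 0.82% in WT cells), so the sign of that day is not firm. The single WT reading of day 4 was the highest of the 8, and the ranges overlapped because WT on day 2 was as low as the Dnmt3a-KO arrays. Its log2 difference averaged -0.71 ± 0.62 (SD over 4 days), -0.42 without day 4 and -0.90 without day 2.

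**Figure D2:**
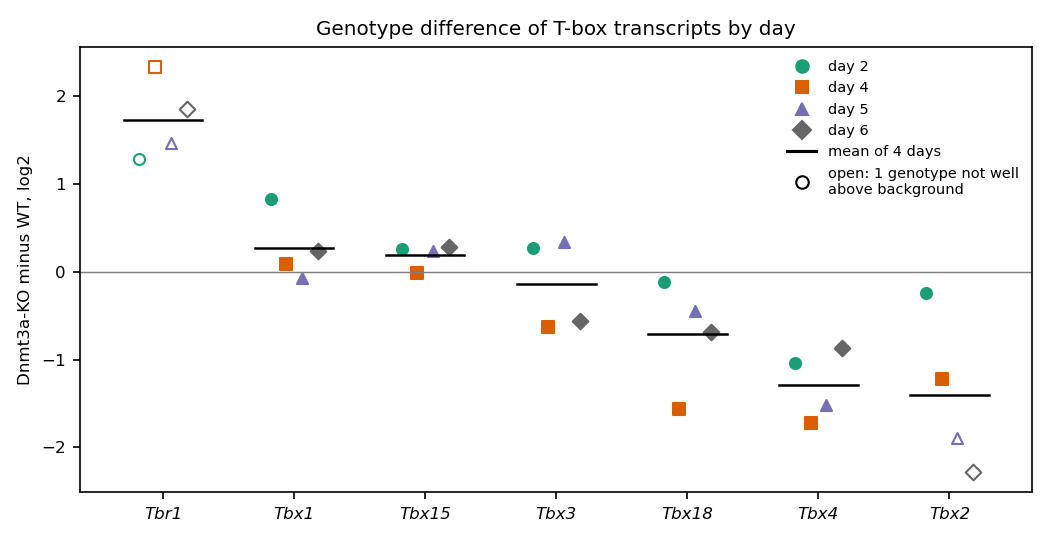
Dnmt3a-KO minus WT difference in log2 signal of the 7 genes, 1 symbol per day (no error bars, 1 array per genotype and day), with a bar at the mean of the 4 days. Open symbols have a reading not well above background in 1 of the genotypes and are set in part by the floor or by dim signal. They are all 4 days of Tbr1 and days 5 and 6 of Tbx2, and their sizes are not exact. Tbx4 and Tbx18 lie below 0 on each day (means -1.29 and -0.71).

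Of the 7 genes in the fit, 1 (Tbr1) had all Dnmt3a-KO arrays above all WT arrays, where 0.941% of all genes tested did, and 1 (Tbx4) had all of them below, where 0.773% did. Dnmt3a-KO was above WT on each day in 1 gene, against 10.9% of all genes, and below it on each day in 3 (Tbx2, Tbx4 and Tbx18), against 11.5%. In the limma fit with day as a block, 0 of the 7 passed an adjusted p of 0.05, as 0.0102% of all genes did (2 of 19655). Ranked by the difference, Tbx4 was at place 55 and Tbx18 at 367 from the bottom of the 19655 genes; Tbr1 and Tbx2 are given no rank, since dim readings set their differences. Since the genes were chosen on this contrast, these counts describe them and nothing is read from them.

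Over the days of culture, Tbx2 gave lower readings on the later days, mostly in Dnmt3a-KO cells. The common slope of both genotypes was -0.37 ± 0.10 log2 units per day (SE) for Tbx2, but -0.24 in the authors' deposited value table, -0.16 with normexp and 0.07 with local background subtracted and an offset of 50, so its direction turned with the treatment of dim signals. Falling slopes were called in 1 of the 7 genes and in 19.5% of all genes, rising ones in 0 of 7 and in 25.9% of all, together 45.4% of all genes. The days were part of the choice of genes too, so nothing is read from these counts. Within Dnmt3a-KO cells the day 6 minus day 2 difference of Tbx2 was -2.5 log2 units, with the day 6 reading not well above background, and within WT cells it was -0.46. Slopes of the others lay between -0.09 ± 0.06 (Tbx15) and 0.33 ± 0.12 (Tbx1) log2 units per day (SE). Much of the movement was the step between day 2 and day 4: Tbx1 gained 1.23 log2 units in Dnmt3a-KO cells and 1.97 in WT cells, and Tbx18 gained 0.63 in Dnmt3a-KO cells and 2.08 in WT cells. Without day 2 the slopes turned to -0.20 for Tbx1 and -0.33 for Tbx18, and that of Tbx15 to 0.14. Day 2 cannot be told apart from its slide, scanner and software, or from the change in sex-linked transcripts. The day 2 arrays also had 0 spots with a processed signal at or below 0, against 4775 to 5797 on the later arrays. Without day 2 the fit called a slope in 0 of 19655 genes, against 8920 with it. The change of the genotype difference per day was past the threshold in 0 of the 7 genes and 0% of all, with 820 genes at an unadjusted limma p under 0.05.

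The genes on either side of these loci were compared next, taking the 2 protein coding genes before and after each in RefSeq order. Of 28 such neighbours 20 were tested, and their Dnmt3a-KO minus WT differences lay between -0.39 and 0.44 log2 units with a median of 0.02. None of the 20 was lower on all 4 days and 4 were higher, against 11.5% and 10.9% of all genes tested. Of the 20, 0 passed the threshold, where 2 of all 19655 genes tested did. Around the Tbx2 and Tbx4 pair, Ppm1d differed by 0.11 ± 0.29, Bcas3 by -0.11 ± 0.35 and Ints2 by -0.13 ± 0.29 (SD over 4 days, limma adjusted p of 0.73, 0.76 and 0.70). Brip1, which lies directly beyond Tbx4, was well above background on 2 of 8 arrays and was not tested. Before Tbr1, Tank differed by 0.28 ± 0.20 and Psmd14 by 0.02 ± 0.19 (limma adjusted p of 0.35 and 0.95). After it, Slc4a10 and Dpp4 were well above background on 0 of 8 arrays. Beside Tbx18, Cep162 differed by 0.20 ± 0.17 and Nt5e by 0.44 ± 0.72, both without passing the threshold.

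**Figure D3:**
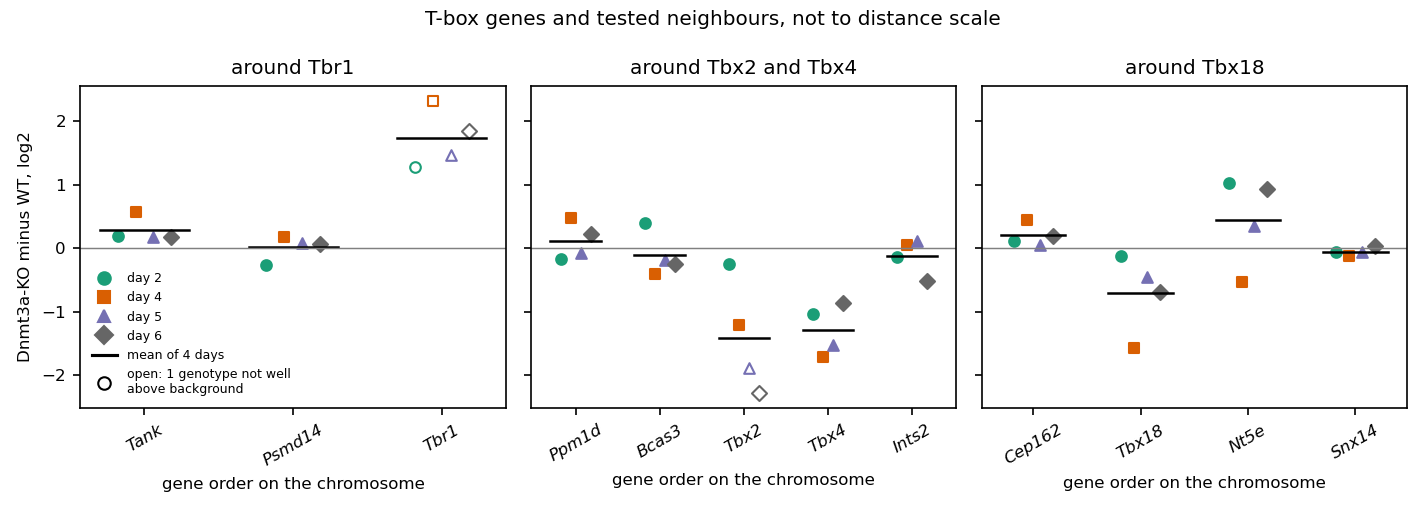
Dnmt3a-KO minus WT difference in log2 signal by day for Tbr1, Tbx2, Tbx4 and Tbx18 and the tested genes beside them, in chromosomal order without distance, with a bar at the mean of the 4 days (1 array per genotype and day, no error bars). Untested neighbours (Slc4a10, Dpp4, Brip1 and Mrap2) are left out; open symbols have a reading not well above background in 1 genotype and are not exact. The tested neighbours have means between -0.13 and 0.44, and Tbx4 has a mean of -1.29.

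For each of the 7 genes, the genes with the most similar profile were found by the root-mean-square distance of centred log2 values over the 8 arrays. Nearest to Tbr1 were Svop, a synaptic vesicle protein gene, at a distance of 0.35 log2 units, then 2010007H06Rik at 0.35 and LOC100045886 at 0.36. Svop was 1.54 ± 0.61 log2 units higher in Dnmt3a-KO cells (SD over 4 days) and above background on all 8 arrays. That difference follows from the choice by profile, and the 4 WT values of Tbr1 in this comparison are the floor. Nearest to Tbx2 were Zbtb20, a zinc finger repressor gene, at 0.33, ENSMUST00000033479 at 0.38 and B3galt5, a galactosyltransferase gene, at 0.40. Nearest to Tbx4 were Gtpbp8 at 0.24, 2610015P09Rik at 0.29 and Traf3ip3 at 0.32. Tbx18 had Mst1r, a receptor tyrosine kinase gene, at 0.17, Scube2 at 0.17 and Cadm4 at 0.18. Tbx1 had Riiad1 at 0.09 and 2010315B03Rik at 0.11, Tbx3 had Zdhhc9 at 0.09, Gm5296 at 0.12 and Sfxn1 at 0.13, and Tbx15 had Pnpla6 at 0.07, Itm2b at 0.08 and LOC100047309 at 0.08. A flat profile lies near many others, so a small distance is no measure of rarity.

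Genes known to work with each T-box factor, in lists drawn up for this description, had 0 calls between genotypes in any list. Of all 19655 genes tested, 2 (0.0102%) were called, so nothing is read from 0 calls here or in the lists below. Of 7 partners and targets of Tbr1 in neurons, 3 were tested (Cask, Tspyl2 and Auts2), with a median difference of 0.00 log2 units against -0.01 over all genes. Fezf2 was well above background on 0 of 8 arrays, and Reln and Grin2b on 3 and 2. Of 6 genes that Tbx2 and Tbx3 are known to repress, all were tested, with a median of 0.03. Cdkn1a, the cell cycle inhibitor p21, differed by 0.13 ± 0.11 (SD over 4 days, limma adjusted p = 0.52). It was higher in Dnmt3a-KO on 4 of 4 days, by 0.27, 0.15, 0.09 and 0.003 log2 units on days 2, 4, 5 and 6, so that day 6 showed almost no difference. Cdkn2a, another inhibitor gene of this list, differed by -0.42 ± 0.41 (limma adjusted p = 0.40).

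Of 17 limb field genes, 14 were tested and 8 were well above background on all 8 arrays. Of the 14, 6 rose and 1 fell over the days, beside 25.9% and 19.5% of all genes, and 0 were called between genotypes, with a median of -0.07. The hindlimb factor Pitx1 rose by 1.24 ± 0.25 log2 units per day (SE, limma adjusted p = 0.014), with a genotype difference of 0.16 ± 1.40 (SD over 4 days). Of its WT readings 3 of 4 were well above background. The lowest, 0.326%, was raised to the floor, so both values rest in part on the floor. Hoxc10, a gene of the hindlimb level of the body axis, differed by -0.15 ± 0.12. Of the same sign on 4 of 4 days were Meis2 (0.27 ± 0.31), Hoxc9 (0.06 ± 0.04), Fgf8 (-0.37 ± 0.33) and Hoxc11 (-0.10 ± 0.07), with limma adjusted p-values of 0.38 to 0.73. The largest mean difference of the list was that of Fgf10, 0.91 ± 0.65 (limma adjusted p = 0.30). By day it was 0, 1.38, 0.91 and 1.37 on days 2, 4, 5 and 6. Only 3 of 4 Dnmt3a-KO and 1 of 4 WT readings of Fgf10 were well above background, so its size is not exact. The day slopes of this list include the step from day 2. Heart partners and targets of Tbx5 had 8 of 13 tested and a median of 0.03; Gja5, a connexin gene, was higher in Dnmt3a-KO on 4 of 4 days by 0.88 ± 0.57 and Nppb, the natriuretic peptide B gene, lower on 4 of 4 days with -0.32 ± 0.34, without a call (limma adjusted p of 0.28 and 0.42). Of 9 branchial arch muscle genes listed with Tbx1, 5 were tested, with a median of -0.06. Cyp26b1, which degrades retinoic acid, differed by 1.07 ± 0.80 and Aldh1a2, which makes it, by -1.02 ± 1.19 (limma adjusted p of 0.31 and 0.43).

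Markers of other cell types were read beside these genes. The fibroblast list (Pdgfra, Dcn, Ly6a, Col1a1, Col3a1, Pi16, Dpt and Lum) had 6 of 8 genes tested and 0 called between genotypes, with Dpt and Lum well above background on 0 of 8 arrays. Within it Col3a1 (-0.92 ± 0.65) and Pi16 (-1.06 ± 0.92, with 2 of 4 Dnmt3a-KO readings well above background) were lower in Dnmt3a-KO on 4 of 4 days and Pdgfra (0.48 ± 0.63) was higher, with limma adjusted p-values of 0.30 to 0.48. Its summed signal was 496 to 3361% in Dnmt3a-KO cells and 662 to 3045% in WT cells. Its median Dnmt3a-KO minus WT difference was 0.29, -1.0, 0.26 and -0.92 log2 units on days 2, 4, 5 and 6. Tbx3 had the same signs on the 4 days (0.27, -0.63, 0.33 and -0.56), whereas Tbx18, with its lowest value on day 4 (-0.12, -1.57, -0.45 and -0.69), and Tbx2 and Tbx4 were below 0 on each day. The Tbx4 differences were -1.04, -1.72, -1.52 and -0.87 on days 2, 4, 5 and 6. Within the list Col3a1 and Pi16 were also below 0 on each day, and Dcn, Ly6a and Col1a1 had mixed signs. Pdgfra was above 0 on each day, with 1.41, 0.07, 0.31 and 0.10 on days 2, 4, 5 and 6. Of its WT readings, 3 of 4 were well above background. The part of fibroblast content in the T-box differences was not tested. Fewer cells of a type and less RNA per cell cannot be told apart in such cultures.

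**Figure D4:**
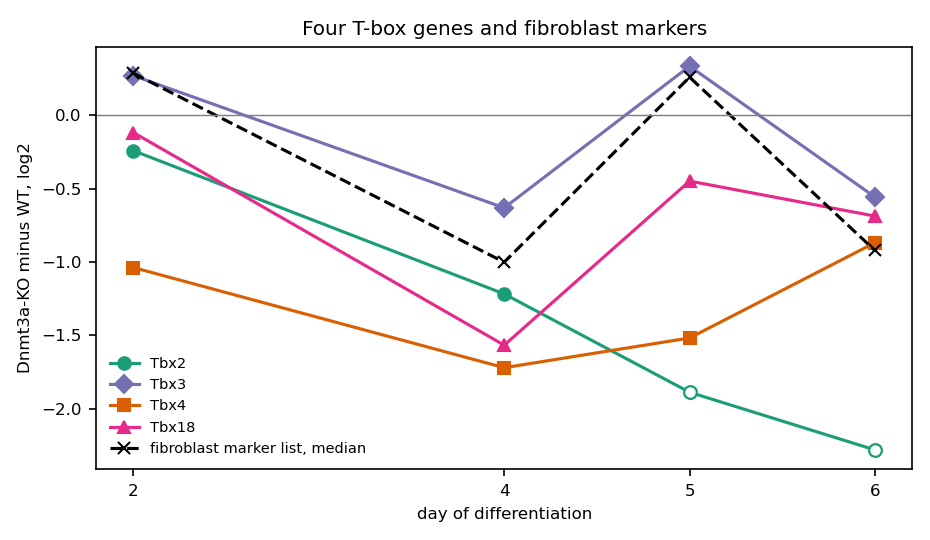
Dnmt3a-KO minus WT difference in log2 signal by day for Tbx2, Tbx3, Tbx4 and Tbx18 (solid lines) and for the median of the 6 tested fibroblast markers (dashed line), 1 array per genotype and day, without error bars. Open symbols are the days on which Tbx2 was not well above background in Dnmt3a-KO cells. The marker median is at 0.29, -1.0, 0.26 and -0.92; Tbx3 has the same signs, while Tbx2, Tbx4 and Tbx18 stay below 0 on all 4 days.

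Of 12 epicardial and pericyte genes listed with Tbx18, 8 were tested, with a median difference of -0.14, 0 calls between genotypes, and Wt1 and Upk3b, which define epicardium and mesothelium, well above background on 0 of 8 arrays. Msln, mesothelin, also known from mesothelium, was so on all 8, at 2262 to 3202% in Dnmt3a-KO cells and 1199 to 3433% in WT cells, a difference of 0.14 ± 0.54 log2 units (SD over 4 days, limma adjusted p = 0.80). The list's summed signal was 13664 to 14908% in Dnmt3a-KO cells and 14126 to 18543% in WT cells, most of it from Acta2, at 10218 to 11662% in Dnmt3a-KO cells and 11364 to 14948% in WT cells. Notch3, a receptor of mural cells and satellite cells, was lower in Dnmt3a-KO on each day, with a mean difference of -0.66 ± 0.46 log2 units (SD over 4 days, limma adjusted p = 0.30), as was the actin gene Acta2 with -0.26 ± 0.19 (limma adjusted p = 0.37). Pdgfrb, a mural cell receptor gene, differed by 2.16, -1.88, 0.33 and -0.94 on days 2, 4, 5 and 6. Their part in the Tbx18 difference was not tested.

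No neuronal gene of the list set beside Tbr1 was called between genotypes, where 2 of all 19655 genes tested were. Of 16 cortical projection neuron genes 6 were tested, 6 others were well above background on 0 of 8 arrays (Neurog2, Neurod6, Sox5, Foxp2, Slc17a6 and Rbfox3), and the median difference was -0.22 log2 units. Summed over the list, the signal was 688 to 1652% in Dnmt3a-KO cells and 919 to 1726% in WT cells. Most of that sum was Snap25, a synaptic vesicle fusion gene, at 479 to 1499% in Dnmt3a-KO cells and 615 to 1532% in WT cells, with a difference of -0.30 ± 0.21 log2 units (SD over 4 days, limma adjusted p = 0.35). Tubb3, a neuronal tubulin gene, differed by -0.42 ± 0.24 and Dcx, a microtubule protein gene of young neurons, by -0.38 ± 0.22 (SD over 4 days, limma adjusted p of 0.30 each), and these 3 were lower in Dnmt3a-KO on 4 of 4 days. Lymphocyte genes, set beside Eomes, had 6 of 12 tested, a median of -0.08 and 0 calls, with the natural killer receptors Ncr1 and Klrb1c well above background on 0 of 8 arrays. The T cell gene Cd3e differed by -0.18 ± 0.10 and the perforin gene Prf1 by -0.10 ± 0.05 (SD over 4 days, limma adjusted p of 0.38 and 0.56). The list's sum was 168 to 189% in Dnmt3a-KO cells and 179 to 188% in WT cells.

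The rest of the family gave no genotype call either, where 2 of all 19655 genes tested did. Of 8 other T-box genes, 4 were tested: Tbx6, a mesoderm factor, differed by 0.24 ± 0.18, Tbx10 by 0.11 ± 0.09, Tbx22, a palate factor, by -0.02 ± 0.69 and Mga, which pairs a T-box with a Max-binding domain, by 0.10 ± 0.23 (SD over 4 days, limma adjusted p of 0.38 to 0.98). Tbx10 fell over the days with a slope of -0.19 ± 0.05 log2 units per day (SE, limma adjusted p = 0.022), and the other 3 slopes did not pass. T, Tbx19 and Tbx21 were well above background on 0 of 8 arrays. Tbx20 had 3 probes, of which one was well above background on 1 Dnmt3a-KO array and another on 1 WT array.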

How the data were processed

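RNA of 8 satellite cell cultures was measured on one-colour Agilent mouse arrays, grouped by genotype and day from the labels. Per the file headers, Agilent Feature Extraction gave each spot's intensity, in version 11.0.1.1 for day 2 and 9.5.3.1 for other days, positions are mm9, and the processed signal is background-subtracted; the submitters' processing notes name version 9.5. The deposited value table holds a score that equals the processed signal times 100 over the 75th percentile of all spots, with negative values at 0, rounded to whole numbers (within 1 on 100% of non-control spots); its column medians were 6 or 7. The files hold 0 columns of other samples.

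Intensities were expressed in percent of the array's own 75th percentile (43020 spots without controls), anything below 0.763%, one floor for all arrays, was raised to that value (-7.03 log2), flagged spots were dropped (273 probes left out) and 1 probe per gene, the brightest, was kept. Symbols came from RefSeq GRCm38.p6 by accession (25905 of 39429 probes). Genes well above background on at least 4 arrays were tested with limma 3.58.1 (R 4.3.3) at a Benjamini-Hochberg adjusted p of 0.05: genotype with day as a block, the day slope with genotype as covariate, and their interaction. The steps were tested on simulated data. The number of arrays limits the precision.

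The genes and lists were chosen with earlier results of these data known. Named were all 9 genes, up to 2 genes per list and direction with the largest difference of one sign on 4 days, 3 genes of nearest profile and 2 neighbours on each side; 2 genes that this rule names are not reported here. Other list genes named (Cask, Tspyl2, Auts2, Fezf2, Reln, Grin2b, Cdkn2a, Pitx1, Hoxc10, Fgf10, Aldh1a2, Pdgfrb, Msln and Snap25) were picked after their values were seen. Alternatives covered scaling, background correction, filter, floor, probes per gene, the day block, the deposited score and leaving out each day.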

Additional observations from a re-analysis of the deposited data

Results flagged for a closer look

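Both results below are signals in probes outside the tests, above the level in all WT arrays. The second Eomes probe, A_55_P2184434, read 10.1% of the 75th percentile on the day 5 Dnmt3a-KO array, against -0.755 to 0.217% on the 4 WT arrays, with 1 of 4 Dnmt3a-KO readings called well above background. The Tbx20 probe A_52_P429876 read 12.4% on the day 6 Dnmt3a-KO array, against -0.364 to 0.230% on the 4 WT arrays, again with 1 of 4 Dnmt3a-KO readings so called. In both genes, the other probes were not well above background on those arrays. Each rests on 1 spot of 1 array.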

How the results depend on the processing

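The number of genes called between genotypes, 2, was 0 with the authors' value table, the mean of all probes, no day block, no filter on dim probes, normexp background correction or quantile scaling. It was 38 with probes well above background on all 8 arrays, and 74 (29 higher and 45 lower) with local background subtracted and an offset of 50, which was chosen after seeing the data. Leaving out 1 day gave 0 to 3 calls. For the day slope, 8920 calls became 0 with normexp and 0 to 9863 when 1 day was left out, with 0 without day 2 and 391 without day 5. The interaction had 0 calls in each setting run. Of 82 alternative values of the 7 genes' genotype differences, 80 kept their sign. Part of these could not change: the filter settings leave a gene's own value as it is. So does the mean of all probes where a gene has 1 probe, and each array's own floor where all readings were bright. The count is thus no measure of robustness, and the count of day slopes below has the same limit. Tbr1 was 1.23 with each array's own floor, 0.86 with the mean of both probes, 0.28 with the offset of 50 and -1.39 with normexp, which raised the dimmest signals to 1849 and 1494 intensity units on the day 2 and day 6 WT arrays, against 58.8 on the day 6 Dnmt3a-KO array. Tbx3 was 0.02 in 1 setting that left out a day. Of 75 alternative day slopes, 66 kept their sign; reversed were Tbx1 (-0.20), Tbx15 (0.14) and Tbx18 (-0.33) without day 2, Tbx18 (-0.027) and Tbx4 (-0.0012) with normexp, and Tbx2 (0.066) with the offset of 50; the cause was not tested. The near-flat Tbr1 slope of 0.05 also changed sign, to -0.10 with the authors' value table, -0.12 without day 2 and -0.12 with normexp. Leaving out 1 day gave slopes of -0.20 to 0.56 for Tbx1, -0.16 to 0.14 for Tbx15 and -0.33 to 0.43 for Tbx18. A reading of 2.25% of the 75th percentile (Eomes, WT on day 4) was not called well above background, while Tbr1 was called so at 1.86% on another array. Readings in this range and below are at the limit of these arrays, which bears on Tbr1, Eomes, Tbx5 and, in Dnmt3a-KO cells, Tbx2.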
